A study of Chlorocebus aethiops with 10 samples.

Results

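The mitosis and spindle checkpoint genes are 45 genes, chosen by symbol. Most of their products drive entry into mitosis, build and police the spindle, or separate the chromosomes. Some, such as that of CCNE1, act at the start of DNA replication. Of the 45 genes, 44 were measured among 16583 genes, and no feature carried the symbol CCNE2. The livers of 10 African green monkeys (Chlorocebus aethiops) were sampled by biopsy, with 1 one-colour array per animal. All were obese adult females kept on a high-fat diet (12 weeks). Treated animals (n = 5) received antimiR-33a/b, an oligonucleotide built from locked nucleic acids that blocks the microRNAs miR-33a and miR-33b. It was injected under the skin, with a first dose of 20 mg/kg and weekly doses of 5 mg/kg thereafter. Vehicle animals (n = 5) received 0.9% NaCl. Tissue came from day 57, when treatment had lasted 8 weeks. The labels used here give no age in years, genotype or strain. Each biopsy is bulk tissue that holds hepatocytes together with blood, immune, endothelial and other cells.

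Cyclin B and its kinase CDK1 start mitosis once CDC25 phosphatases remove inhibitory phosphates. Spindle checkpoint proteins at unattached kinetochores then hold back CDC20, the activator of the anaphase-promoting complex, until every chromosome is attached. Most of these genes are transcribed late in the cell cycle under FOXM1 and the MuvB complex, so their RNA is used as a sign of dividing cells. In adult liver few hepatocytes divide, many are polyploid, and dividing cells of other types can contribute. MiR-33 has been reported in cultured cells to repress CDK6 and CCND1, which act before DNA replication and are not among the 45 genes.

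Between treated and vehicle livers a minority of the mitotic transcripts differed. CCNB1, CDK1, MAD2L1, BUB3, BIRC5, NUSAP1 and DLGAP5 rose in treated animals, by 1.15-fold (BIRC5) to 1.30-fold (NUSAP1). INCENP, the scaffold of the chromosomal passenger complex, fell to 0.747-fold, and KIF11, the motor that pushes spindle poles apart, fell to 0.826-fold. CCNB1, MAD2L1, INCENP and NUSAP1 passed whichever animal was left out, while CDK1, BUB3, BIRC5, DLGAP5 and KIF11 did not. The other 35 measured genes did not pass the test, among them the proliferation marker MKI67, TOP2A, PLK1, FOXM1 and BUB1B. By limma (Benjamini-Hochberg over the 16583 genes, adjusted p under 0.05) 9 of 44 members passed, which is 20.5%, and 20.5% of all genes passed. The members were thus called as often as genes in general. In bulk tissue, more dividing cells and more RNA per cell cannot be told apart.

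By direction, 7 members were higher, against 13.7% of all genes, and 2 were lower, against 6.8% of all genes. Of all calls 66.8% were higher, and 54.3% were after quantile normalization, which called 5 members higher and 2 lower. The difference was above 0 for 26 of the 44 members (59.1%) and for 59.2% of all genes. The median difference, treated minus vehicle on the log2 scale, was 0.028 for the members and 0.039 for all genes. Their median absolute differences were 0.125 and 0.123. In MAD2L1, NUSAP1, CCNB1 and BIRC5 every treated animal lay above every vehicle animal. These are 4 of 44 members, and 8.79% of all genes were separated in that direction. No member was separated in the other direction, as 4.52% of all genes were.

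Array medians over features ran from -0.054 to 0.061, and the 10 arrays all differed. The deposited values of each feature lie around 0, so a value compares animals for 1 gene and says nothing of how strongly a gene is expressed or whether its signal exceeded background. The liver label therefore cannot be checked against marker levels; 10 of 11 listed hepatocyte markers were measured. One measure across gene families, called the family contrast here, differed between the groups. It is the median of 341 genes in 9 housekeeping families (ribosome, proteasome, respiratory chain and the like) minus that of 503 genes in 6 families that liver does not normally express, such as olfactory and taste receptors (the silent families). It ran from -0.30 to -0.021 in vehicle animals and from -0.088 to 0.23 in treated animals, and the groups overlapped through vehicle animal 4 and treated animal 2. The difference was 0.28 (exact two-sided permutation p = 0.0159, higher than the highest vehicle value in 4 of 5 treated animals). Once limma was given it as a covariate, 2.41% of all genes and 1 of 44 members, NUSAP1, passed. The covariate and the group share variation (r = 0.78 over the 10 arrays), and the median SE of a member's difference went from 0.076 to 0.11.

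**Figure D1:**
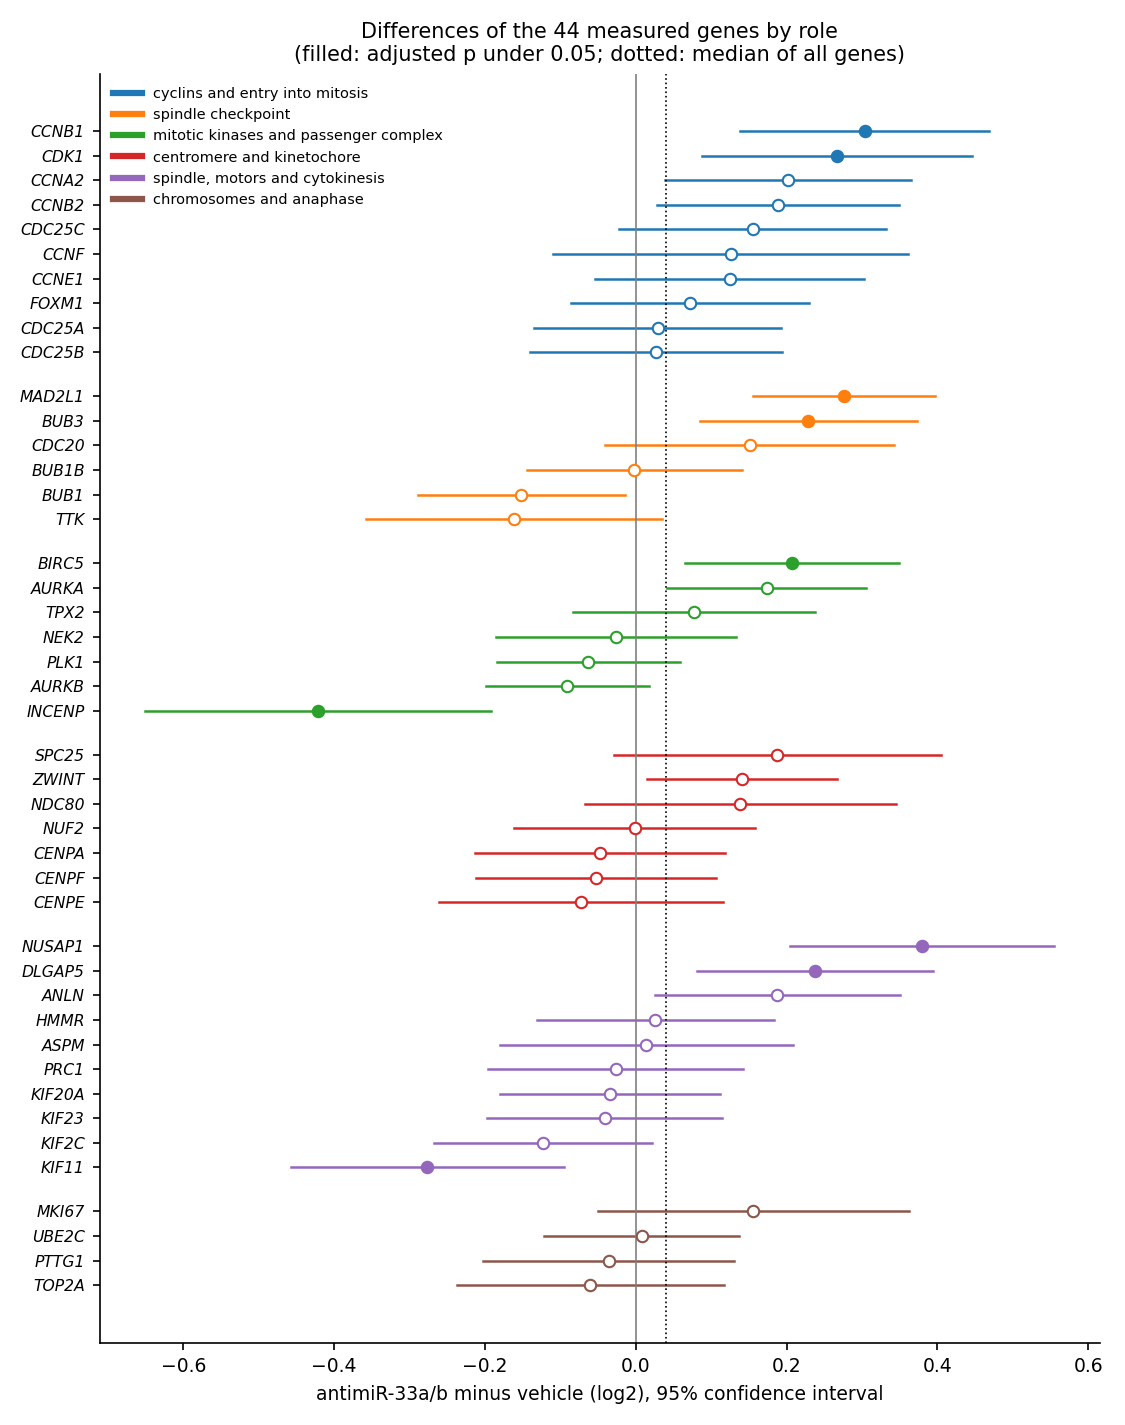
Difference between 5 treated and 5 vehicle animals (log2, x axis) for the 44 measured members, grouped by role, with 95% confidence intervals from limma. Filled points mark the 9 members past the adjusted p of 0.05, 7 to the right of 0 and 2, INCENP and KIF11, to the left, and the dotted line is the median of all genes, 0.039.

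Among cyclins, CDK1 and their activators, 10 genes were measured, 2 rose, 0 fell, and all 10 differences were positive, with a median of 0.14. The share called was 20%, against 20.5% of all genes, and 59.2% of all genes had a positive difference. The 10 genes share the same arrays and are not separate observations (mean pairwise correlation 0.31 after group means were subtracted). CDC25A (0.029) and CDC25B (0.027) lay near 0, and both turned sign in some fits that left out 1 animal. CCNB1 encodes cyclin B1, the partner of CDK1 in mitosis. Its values were -0.29, -0.16, -0.032, -0.23 and -0.11 in vehicle animals 1 to 5 and 0.027, 0.087, 0.34, 0.22 and 0.010 in treated animals 1 to 5. Every treated animal was above every vehicle animal, with treated animal 3 the highest and vehicle animal 1 the lowest. CCNB1 thus rose from -0.17 ± 0.10 (SD, n = 5) to 0.14 ± 0.14 (SD, n = 5), a difference of 0.30 (SE 0.077, 95% confidence interval 0.14 to 0.47), with a limma adjusted p of 0.0165 and an exact permutation p of 0.00794. That p is the smallest the 252 assignments of 10 animals allow.

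CDK1 is the kinase that cyclin B activates. Its values were -0.25, -0.19, -0.075, -0.30 and -0.018 in vehicle animals and 0.036, 0.023, 0.36, 0.12 and -0.046 in treated animals, in the same order. The groups overlapped only through treated animal 5, which lay below vehicle animal 5, and treated animal 3 was again the highest. CDK1 rose by 0.27 (SE 0.083, limma adjusted p = 0.0386, exact permutation p = 0.0159), and its 2 features gave 0.24 and 0.29, both past the threshold when every feature was tested on its own. The call was lost without vehicle animal 1, 2 or 4 or treated animal 1, 3 or 4 (adjusted p up to 0.0909). With the family contrast as a covariate CCNB1 differed by 0.29 (adjusted p = 0.1504) and CDK1 by 0.25 (adjusted p = 0.236), sizes close to those without it.

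The other cyclins lay in the same direction without passing. CCNA2, cyclin A2 of S phase and early mitosis, differed by 0.20 (adjusted p = 0.0745), and CCNB2, a second B-type cyclin, differed by 0.19 (adjusted p = 0.0873). In both, 4 of 5 treated animals were above the highest vehicle animal. Without treated animal 5 CCNA2 passed the threshold (adjusted p = 0.0438), as CCNB2 did without treated animal 1 (adjusted p = 0.0219). CCNB2 also passed with array weights (adjusted p = 0.0275), and both missed in every other alternative. CCNE1, which acts at the start of DNA replication, differed by 0.12 (adjusted p = 0.301), and CCNF, an F-box protein, by 0.13 (adjusted p = 0.432), the member with the widest interval (-0.11 to 0.36). Of the CDC25 phosphatases, CDC25C differed by 0.15, CDC25A by 0.029 and CDC25B by 0.027, with adjusted p from 0.194 to 0.837. 

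FOXM1 is the transcription factor that drives many of these genes late in the cycle. Its values were 0.0036, -0.059, 0.091, -0.30 and -0.0073 in vehicle animals and -0.10, 0.031, 0.058, 0.074 and 0.034 in treated animals. Treated animals lay within the vehicle range, and the lowest values were those of vehicle animal 4 and treated animal 1. The difference of 0.072 did not pass (95% confidence interval -0.086 to 0.23, adjusted p = 0.507), so a rise above 1.17-fold lay outside its interval.

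Of the 6 spindle checkpoint genes, MAD2L1 and BUB3 rose, 0 fell and 4 did not pass, so 33.3% were called, against 20.5% of all genes. MAD2L1 encodes MAD2, which binds and blocks CDC20, and was the member with the smallest p. Its values were -0.17, -0.21, -0.14, -0.20 and -0.058 in vehicle animals and 0.050, 0.16, 0.21, 0.13 and 0.067 in treated animals. The groups did not overlap, and all vehicle animals lay below 0 and all treated animals above it. MAD2L1 went from -0.15 ± 0.060 (SD, n = 5) to 0.12 ± 0.065 (SD, n = 5), a rise of 0.28 (SE 0.056, 95% confidence interval 0.16 to 0.40, limma adjusted p = 0.00673, exact permutation p = 0.00794). Given the family contrast as covariate, its difference was 0.32 (adjusted p = 0.0529) and narrowly missed the threshold.

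BUB3 carries BUB1 and BUBR1 to kinetochores. Its values were -0.058, -0.32, -0.21, -0.12 and -0.22 in vehicle animals and 0.12, -0.11, 0.11, 0.060 and 0.037 in treated animals. Treated animal 2 lay within the vehicle range and the other 4 above it. BUB3 rose by 0.23 (SE 0.067, limma adjusted p = 0.0303, exact permutation p = 0.0159). Its 2 features gave 0.25 (adjusted p over features = 0.0118) and 0.21 (adjusted p = 0.108). The call was lost without vehicle animal 2, 3 or 5 or treated animal 1, 3, 4 or 5 (adjusted p up to 0.0793), after quantile normalization (adjusted p = 0.102) and with the covariate, where the difference was 0.13 (adjusted p = 0.377).

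The other checkpoint genes did not pass. BUB1, a checkpoint kinase, differed by -0.15 (95% confidence interval -0.29 to -0.015, adjusted p = 0.106). It passed without vehicle animal 4 (adjusted p = 0.0384) and with array weights (adjusted p = 0.0497), and missed in every other alternative. TTK, the kinase MPS1 that starts checkpoint signalling, differed by -0.16 (adjusted p = 0.223), with 4 of 5 treated animals below every vehicle animal and treated animal 2 among the higher vehicle values. For BUB1B, the gene of the CDC20 inhibitor BUBR1, values were -0.012, -0.11, 0.086, -0.042 and 0.054 in vehicle animals and -0.16, 0.049, 0.092, 0.070 and -0.078 in treated animals. The ranges overlapped, with treated animal 1 the lowest of all and treated animal 3 the highest. The difference was -0.0021, with an interval from -0.14 to 0.14 (adjusted p = 0.986). CDC20, the target of the checkpoint, had values of -0.15, -0.16, -0.080, -0.28 and 0.12 in vehicle animals and -0.16, -0.066, 0.23, 0.18 and 0.015 in treated animals. Treated animals 3 and 4 were above the vehicle range and treated animal 1 was among the lowest, and the difference of 0.15 did not pass (adjusted p = 0.242).

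**Figure D2:**
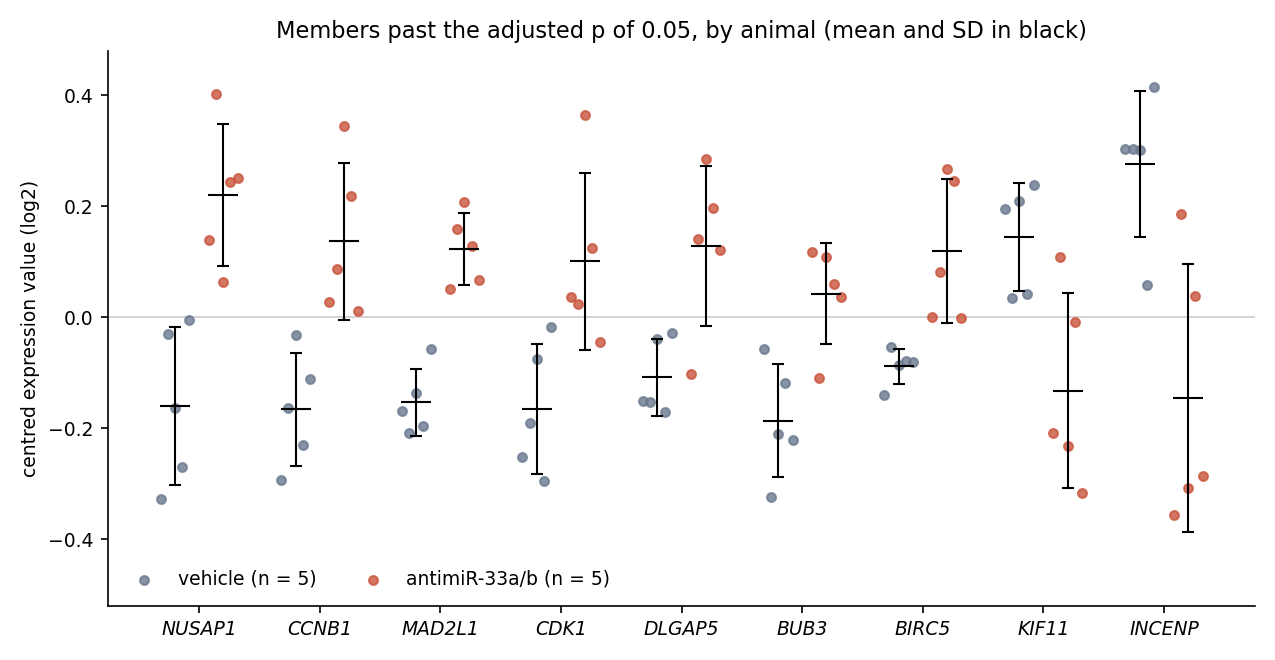
Centred expression values (log2, y axis) of the 9 members past the adjusted p of 0.05 in each vehicle (grey) and treated (red) animal, with the mean and SD of 5 animals in black. Treated and vehicle animals are fully separated for NUSAP1, CCNB1, MAD2L1 and BIRC5, while for INCENP and KIF11 the highest treated animal lies within the vehicle range.

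Members of the chromosomal passenger complex, which corrects wrong attachments and completes cytokinesis, differed in opposite directions. INCENP, its scaffold, had values of 0.30, 0.30, 0.30, 0.057 and 0.42 in vehicle animals and -0.36, 0.19, -0.31, 0.039 and -0.29 in treated animals. Treated animals 1, 3 and 5 were far below the vehicle range, treated animal 4 was just below it, and treated animal 2 lay within it. INCENP fell from 0.28 ± 0.13 (SD, n = 5) to -0.15 ± 0.24 (SD, n = 5), a difference of -0.42 (SE 0.11, 95% confidence interval -0.65 to -0.19, limma adjusted p = 0.0166, exact permutation p = 0.0159). Given the family contrast as covariate, the difference was -0.076 (adjusted p = 0.690). Within groups INCENP had a correlation of -0.80 with that contrast over the 10 arrays.

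BIRC5 encodes survivin, the subunit that brings the complex to centromeres. Its values were -0.14, -0.055, -0.086, -0.080 and -0.082 in vehicle animals and 0.00098, 0.081, 0.27, 0.25 and -0.00098 in treated animals. The vehicle animals were tightly grouped, and treated animals 3 and 4 were well above the other 3. BIRC5 rose by 0.21 (SE 0.066, limma adjusted p = 0.0417, exact permutation p = 0.00794). The call was lost without vehicle animal 1, 2, 3 or 5 or treated animal 2, 3 or 4 (adjusted p up to 0.103), after quantile normalization (adjusted p = 0.0526), when the 25% of genes with the lowest spread were left out (adjusted p = 0.0516) and with the covariate (0.17, adjusted p = 0.275). AURKB, the kinase of the complex, differed by -0.091 (95% confidence interval -0.20 to 0.018, adjusted p = 0.214), with 4 of 5 treated animals below every vehicle animal. CDCA8, the borealin subunit, named here after its value was seen, differed by -0.11 (adjusted p = 0.253).

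AURKA, the kinase of centrosome maturation and spindle assembly, had values of -0.12, -0.033, -0.055, -0.12 and -0.00069 in vehicle animals and -0.013, 0.033, 0.11, 0.23 and 0.18 in treated animals. Treated animal 1 fell within the vehicle range and the other 4 above it. The difference of 0.17 (SE 0.061, exact permutation p = 0.0159) missed the threshold in limma (adjusted p = 0.0602) and passed it without treated animal 1 (adjusted p = 0.0448). AURKA also passed with arrays shifted to the same median (adjusted p = 0.0355) and with array weights (adjusted p = 0.0279), and missed in every other alternative. TPX2, which activates AURKA on the spindle, differed by 0.077 (adjusted p = 0.481). For PLK1, the polo-like kinase of mitotic entry and exit, values were 0.038, 0.073, 0.074, -0.039 and 0.012 in vehicle animals and -0.16, 0.048, -0.0095, -0.014 and -0.025 in treated animals. The ranges overlapped, with treated animal 1 the lowest, and the difference was -0.063 (95% confidence interval -0.18 to 0.058, adjusted p = 0.445). NEK2, a kinase of centrosome separation, differed by -0.026 (adjusted p = 0.834).

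In limma 0 of the 7 centromere and kinetochore genes passed, where 20.5% of all genes did, and 1, ZWINT, had an unadjusted p under 0.05. ZWINT, which links the checkpoint to the kinetochore, differed by 0.14 (adjusted p = 0.103), with 4 of 5 treated animals above the vehicle range. The subunits of the NDC80 complex, which grips microtubules, gave 0.19 for SPC25, 0.14 for NDC80 and -0.0014 for NUF2, and SPC24, named here after its value was seen, gave 0.056. Their adjusted p ran from 0.199 to 0.991. CENPA, the histone variant that marks centromeres, differed by -0.048, CENPE, a kinetochore motor, by -0.072, and CENPF, a large kinetochore protein, by -0.053 (adjusted p from 0.586 to 0.693).

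Of the 10 genes of the spindle, its motors and cytokinesis, NUSAP1 and DLGAP5 rose, KIF11 fell and 7 did not pass. The share called was 30%, against 20.5% of all genes. NUSAP1, which bundles spindle microtubules around chromosomes, had values of -0.33, -0.031, -0.16, -0.27 and -0.0055 in vehicle animals and 0.14, 0.40, 0.063, 0.24 and 0.25 in treated animals. The groups did not overlap, and treated animal 2 was the highest and vehicle animal 1 the lowest. NUSAP1 went from -0.16 ± 0.14 (SD, n = 5) to 0.22 ± 0.13 (SD, n = 5), a rise of 0.38 (SE 0.081, 95% confidence interval 0.20 to 0.55, limma adjusted p = 0.00842, exact permutation p = 0.00794). Given the family contrast as covariate, the difference was larger, 0.55 (SE 0.11, adjusted p = 0.0426).

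DLGAP5, also called HURP, stabilises microtubules near chromosomes. Its values were -0.15, -0.15, -0.040, -0.17 and -0.029 in vehicle animals and -0.10, 0.14, 0.29, 0.20 and 0.12 in treated animals. Treated animal 1 lay among the vehicle animals and the other 4 above them all. DLGAP5 rose by 0.24 (SE 0.073, limma adjusted p = 0.0362, exact permutation p = 0.0238), a call lost without vehicle animal 1, 2, 3 or 4 or treated animal 2, 3, 4 or 5 (adjusted p up to 0.0898) and with the covariate (0.33, adjusted p = 0.0860).

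KIF11, or Eg5, had values of 0.20, 0.035, 0.21, 0.041 and 0.24 in vehicle animals and -0.21, 0.11, -0.23, -0.0097 and -0.32 in treated animals. As with INCENP, treated animal 2 was within the vehicle range and treated animals 1, 3 and 5 were far below it. KIF11 fell by 0.28 (SE 0.084, limma adjusted p = 0.0351, exact permutation p = 0.0317), a call lost without vehicle animal 1, 3 or 5 or treated animal 1, 3 or 5 (adjusted p up to 0.0831). With the covariate the difference was -0.071 (adjusted p = 0.696). The other motors did not pass: KIF2C, which shortens microtubules, differed by -0.12, KIF23 of the central spindle by -0.041 and KIF20A of cytokinesis by -0.034.

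ANLN, the actin-binding scaffold of the cleavage furrow, differed by 0.19 (adjusted p = 0.0931), with 4 of 5 treated animals above the vehicle range. PRC1, which bundles the central spindle, differed by -0.027, HMMR, a spindle protein, by 0.026, and ASPM, a spindle pole protein, by 0.014. After INCENP, ASPM was the member whose difference moved most when the family contrast was added, to 0.30 (adjusted p = 0.0785).

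None of the 4 genes of chromosome structure and anaphase passed in limma, where 20.5% of all genes did, and 0 had an unadjusted p under 0.05. MKI67 coats mitotic chromosomes and is the standard proliferation marker in tissue. Its values were -0.063, -0.17, 0.13, -0.30 and 0.17 in vehicle animals and 0.026, 0.096, 0.32, -0.043 and 0.15 in treated animals. Only treated animal 3 exceeded the vehicle range, and the difference of 0.16 had an interval of -0.050 to 0.36 (adjusted p = 0.260, exact permutation p = 0.198). TOP2A, the topoisomerase that untangles sister chromatids, had values of 0.17, -0.070, 0.15, -0.13 and 0.21 in vehicle animals and 0.0065, 0.13, 0.12, -0.069 and -0.14 in treated animals. No treated animal exceeded the vehicle range and treated animal 5 was the lowest of all, with a difference of -0.060 (95% confidence interval -0.24 to 0.12, adjusted p = 0.634). PTTG1, the securin that restrains separase, differed by -0.036 and UBE2C, the ubiquitin-conjugating enzyme of the anaphase-promoting complex, by 0.0080. The 4 features of UBE2C gave -0.15, 0.020, 0.065 and 0.10, and the 2 of KIF23 gave -0.12 and 0.038, so both genes had features of opposite sign, none past the threshold.

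Over the 35 members that did not pass, differences ran from -0.16 (TTK) to 0.20 (CCNA2), 19 above and 16 below 0. For 19 of the 35 the whole 95% confidence interval lay within 0.25 of 0 on the log2 scale, that is between 0.841-fold and 1.19-fold. The other 16 could hide larger changes at this number of animals. An unadjusted p under 0.05 was found for 15 of the 44 members, against 35.6% of all genes. Those 15 include 6 of the 35, AURKA, CCNA2, CCNB2, ANLN and ZWINT with higher and BUB1 with lower values in treated animals.

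**Figure D3:**
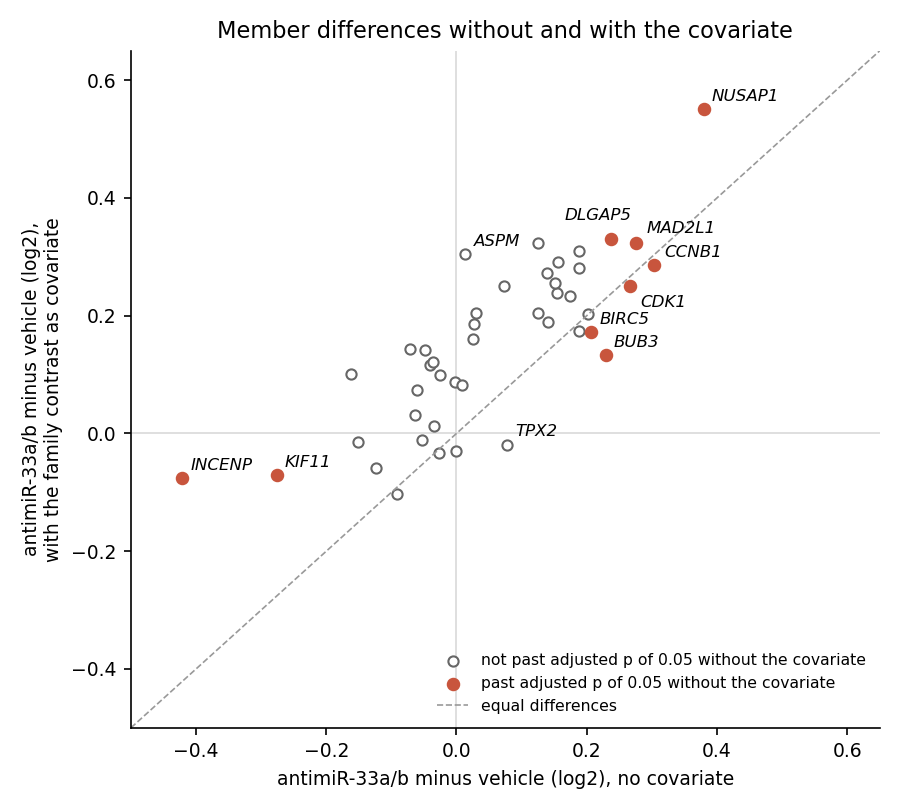
Difference between treated and vehicle animals (log2) for the 44 members without a covariate (x axis) and given the family contrast as covariate (y axis); the dashed line marks equal values. Differences of INCENP and KIF11 lie close to 0 with the covariate, most members lie above the line, and NUSAP1 is the 1 member past the threshold in both fits.

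With the covariate the difference was above 0 for 35 of 44 members, against 26 without it, and for 68.2% of all genes. The median difference of the members was then 0.17, and that of all genes was 0.089. All 9 called members kept their sign, and 3 of them, NUSAP1, MAD2L1 and DLGAP5, had a larger size. INCENP and KIF11 had the 2 largest reductions among the 9.

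Across animals the members varied together. After each group's mean was subtracted, the mean pairwise Pearson correlation over the 10 arrays was 0.38 for the 946 pairs of members, 0.069 for all genes and 0.42 for the silent families, a description without a test in which all pairs share the same arrays. The same measure was 0.21 for 67 further mitosis genes, 0.087 for 46 genes of DNA replication and 0.21 for the housekeeping families. It was 0.58 among the centromere and kinetochore genes, 0.50 among the spindle and cytokinesis genes and 0.027 among the kinases and passenger genes. CCNB1 and CDK1, partners in 1 complex, had a correlation of 0.91. Other partners in a complex had lower ones: 0.75 for NDC80 and NUF2 and 0.46 for NDC80 and SPC25. AURKB had 0.29 with BIRC5 and 0.067 with INCENP. INCENP and KIF11 had a correlation of 0.89 with each other, and of 0.86 and 0.76 with the median of the silent families. With MKI67, 39 of the 43 other members had a positive correlation, highest for SPC25 (0.94) and NEK2 (0.88) and lowest for AURKB (-0.59). The share of all genes with a positive correlation with MKI67 was not computed. With the median of the silent families, 41 of the 44 members had a positive correlation. BUB3, AURKB and TPX2 ran against the rest, with mean correlations with the other members of -0.18, -0.18 and -0.31.

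The median over the 44 members ran from -0.095 to 0.072 in vehicle animals and from -0.084 to 0.10 in treated animals. Vehicle animals 3 and 5 and treated animals 2, 3 and 4 had the higher medians, and vehicle animal 4 and treated animal 1 the lowest, so the groups overlapped. After group means were subtracted, this median had a correlation of 0.77 with the median of the silent families, 0.82 with the median of all genes and -0.099 with that of the housekeeping families. With each array's gene median also subtracted, the mean pairwise correlation was 0.22 among members, 0.24 among the silent families and 0.0040 among all genes. The part of overall signal on the arrays in the shared variation of the members was not tested further.

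**Figure D4:**
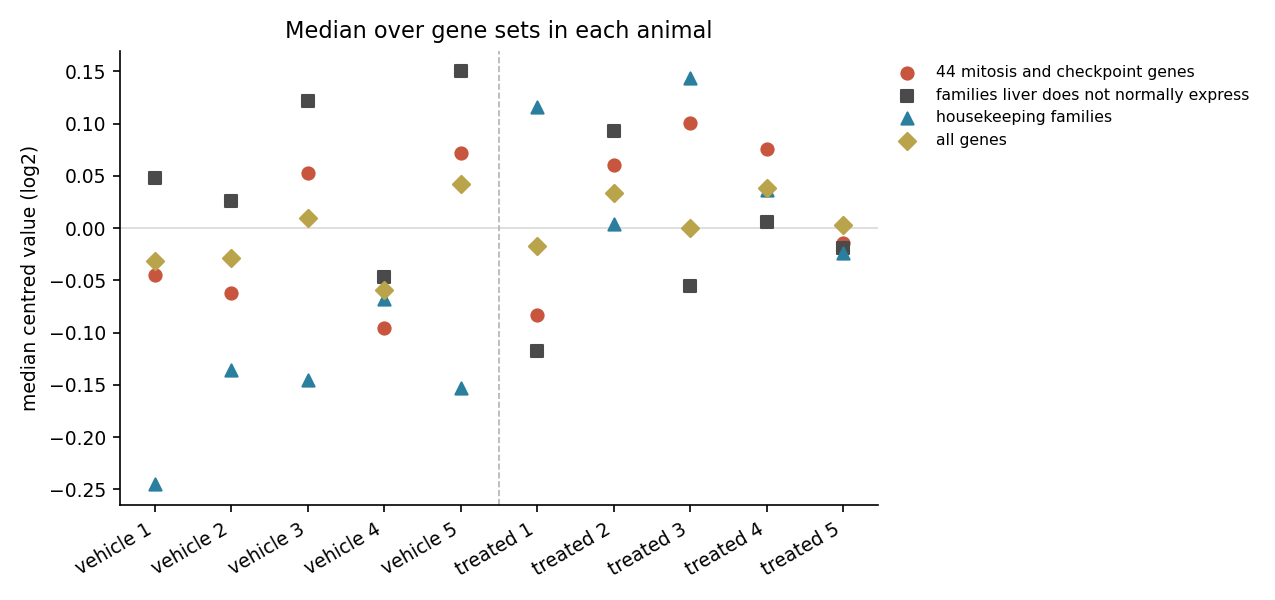
Median centred value (log2, y axis) in each animal (x axis) over the 44 members (circles), the families that liver does not normally express (squares), the housekeeping families (triangles) and all genes (diamonds). The members' median is lowest in vehicle animal 4 and treated animal 1 and overlaps between groups, whereas the housekeeping median is below 0 in all 5 vehicle animals and highest in treated animals 1 and 3.

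Other genes of cell division were read against the same 20.5% of all genes. Of 67 further mitosis genes, 11 rose, 3 fell and 53 did not pass, with a median of 0.055. The smallest p belonged to STAG2, a cohesin subunit (0.57, limma adjusted p = 0.00393), CENPM of the inner kinetochore (0.27, adjusted p = 0.00579), ECT2, which starts cytokinesis (0.37, adjusted p = 0.00611), and KNL1, the kinetochore platform for BUB3 and BUB1 (0.35, adjusted p = 0.00993). All 4, picked by their p, rose with every treated animal above every vehicle animal. Of the 67, 9 were separated in that direction and 1 in the other, against 8.79% and 4.52% of all genes. All 4 missed the threshold with the covariate, where STAG2 differed by 0.38, CENPM by 0.26, ECT2 by 0.41 and KNL1 by 0.43 (limma adjusted p from 0.0613 to 0.130). The 3 that fell were GTSE1 (-0.28), CDCA2 (-0.27) and CENPI (-0.24), named after their values were seen.

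Of 17 genes of the anaphase-promoting complex and its regulators, 6 rose and 0 fell (35.3%). They included the subunits ANAPC13 (0.40, limma adjusted p = 0.0118), ANAPC5 (0.37, adjusted p = 0.0135) and CDC26 (0.25, adjusted p = 0.0121), and the inhibitor FBXO5, also called EMI1 (0.26, adjusted p = 0.0264). The remaining 2, named after their values were seen, were the subunits ANAPC4 (0.23) and ANAPC7 (0.23). Of 6 genes of the MuvB core and its MYB partners, RBBP4, a histone-binding subunit, rose (0.36, adjusted p = 0.0428) and LIN37 fell (-0.16, adjusted p = 0.04998), while MYBL2, or B-MYB, differed by 0.094 and LIN54 by 0.11 without passing. With the covariate RBBP4 differed by 0.0091 (adjusted p = 0.973), LIN37 by -0.11 (adjusted p = 0.329), ANAPC13 by 0.13 (adjusted p = 0.460) and ANAPC5 by 0.11 (adjusted p = 0.510), all smaller than without it. CDC26 then differed by 0.24 (adjusted p = 0.104) and FBXO5 by 0.34 (adjusted p = 0.0879).

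Among 19 genes of entry into the cycle, CDK2 (0.26, limma adjusted p = 0.00796), the E2F partner TFDP1 (0.23, adjusted p = 0.0130) and the cyclin CCND2 (0.19, adjusted p = 0.0429) rose. E2F1, a transcription factor of S phase entry, fell (-0.37, adjusted p = 0.0112). The reported miR-33 targets CDK6 and CCND1 differed by 0.035 (95% confidence interval -0.10 to 0.17) and -0.24 (-0.57 to 0.092), neither past the threshold. Of 15 inhibitors of division, 4 rose and 0 fell. These were RB1 (0.45, adjusted p = 0.00977) and RBL2 (0.38, adjusted p = 0.00720) of the retinoblastoma family, CDKN1B, the CDK inhibitor p27 (0.35, adjusted p = 0.00753), and the antiproliferative gene BTG1 (0.37, adjusted p = 0.0349). Of 46 genes of DNA replication and nucleotide supply, 12 rose and 2 fell, led by MCM10, ORC5, RFC1 and RPA1, with differences of 0.50, 0.49, 0.27 and 0.37 (adjusted p from 0.00422 to 0.0129). The 2 that fell were CDT1 (-0.26), a replication licensing factor, and CDC45 (-0.19) of the replicative helicase, named after their values were seen. With the covariate E2F1 differed by -0.085 (adjusted p = 0.516), and the differences of RB1, RBL2, BTG1 and CDKN1B were 0.20, 0.15, 0.21 and 0.26. Those of CDK2, TFDP1 and CCND2 were 0.19, 0.15 and 0.16, and those of MCM10, ORC5, RFC1 and RPA1 were 0.37, 0.12, 0.18 and 0.12. All 12 were smaller in size than without the covariate. In that fit 2 genes of these 6 lists passed, the further mitosis gene CENPH (0.60, adjusted p = 0.0488) and the inhibitor CDKN2B (0.45, adjusted p = 0.0476), again named after their values were seen.

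**Figure D5:**
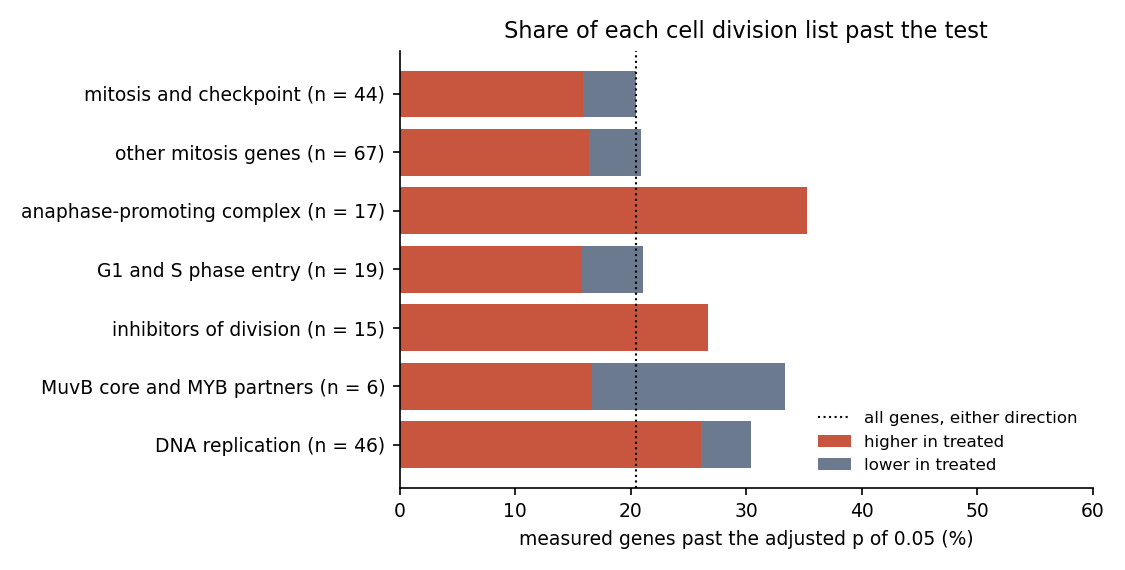
Share of measured genes past the adjusted p of 0.05 (x axis, in percent) in each list of cell division genes, split into higher (red) and lower (grey) in treated animals. The dotted line marks the 20.5% of all genes; the mitosis and checkpoint genes end on it, and the anaphase-promoting complex list reaches 35.3%.

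Markers of cell types that could hold dividing cells were counted in the same fit, to be read against 13.7% of all genes called higher and 6.8% called lower. With the family contrast as covariate 0 of the 74 markers in the 8 lists passed in limma (23 at an unadjusted p under 0.05), where 2.41% of all genes passed. Of 10 hepatocyte markers 5 rose and 0 fell, and their per-animal median ran from -0.39 to -0.039 in vehicle animals and from -0.10 to 0.14 in treated animals. ALB (0.44), AMBP (0.30), TF (0.31) and AHSG (0.27), all genes of plasma proteins, had the smallest p (limma adjusted p from 0.00721 to 0.0262), and the fifth that rose was TTR (0.26), added with its value known. With the covariate ALB differed by 0.52 (adjusted p = 0.0650) and AHSG by 0.34 (adjusted p = 0.0911), and the list's median difference went from 0.26 to 0.17. Of 13 T and NK cell markers, the cytotoxic genes NKG7 (-0.31) and GNLY (-0.20) and the chemokine CCL5 (-0.28) fell and CD247, a T cell receptor subunit, rose (0.18). The other 9 did not pass. Of the 13 differences 5 were above 0, and their median was -0.074 without the covariate and -0.0094 with it. The list's median ran from -0.088 to 0.18 in vehicle animals and from -0.14 to 0.037 in treated animals. In the covariate fit the differences of NKG7 and GNLY were -0.041 and -0.032 (adjusted p = 0.751 and 0.804), and CCL5 differed by -0.28 (adjusted p = 0.158) and CD247 by 0.25 (adjusted p = 0.0946). Of 6 B and plasma cell markers, TNFRSF17 (0.23) and MZB1 (0.26), genes of plasma cells, rose and CD79A (0.17) and MS4A1 (-0.24) did not pass, with medians from -0.26 to 0.0057 in vehicle animals and from -0.032 to 0.18 in treated animals. With the covariate TNFRSF17 differed by 0.21 (adjusted p = 0.2496) and MZB1 by 0.38 (adjusted p = 0.0860), and MS4A1 turned sign to 0.20 (adjusted p = 0.199).

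Endothelial markers rose in 3 of 10 cases, TEK (0.37), STAB1 (0.41) and STAB2 (0.33), while VWF (0.19) did not pass, and their median ran from -0.32 to 0.030 in vehicle animals and from -0.026 to 0.29 in treated animals. Of the 10 endothelial differences 8 were above 0, and the lowest was -0.14. With the covariate TEK differed by 0.28 (adjusted p = 0.253), STAB1 by 0.11 (adjusted p = 0.65) and STAB2 by 0.20 (adjusted p = 0.392), and the median difference of the list went from 0.23 to 0.058. Stellate cell markers rose in 3 of 10 cases, TIMP1 (0.36), LRAT (0.33) and RGS5 (0.34), while DCN (0.28) did not pass, and their median ran from -0.24 to 0.041 in vehicle animals and from -0.057 to 0.17 in treated animals. Of the 10 stellate differences 7 were above 0, and the lowest was -0.13. With the covariate TIMP1 differed by 0.45 (adjusted p = 0.0524), LRAT by 0.34 (adjusted p = 0.133) and RGS5 by 0.39 (adjusted p = 0.122). In limma 0 of 11 macrophage, 0 of 6 cholangiocyte and 0 of 8 blood (red cell or neutrophil) markers passed, with 1, 1 and 2 at an unadjusted p under 0.05. The smallest p in these lists were those of LYZ (0.34), MARCO (0.29), VSIG4 (0.24) and C1QB (0.13) for macrophages. They were those of SOX9 (-0.23), CFTR (0.11), KRT19 (0.068) and KRT7 (-0.037) for cholangiocytes, and HBB (1.25), S100A8 (0.22), HBA2 (0.91) and HBA1 (0.92) for blood. With the covariate the median difference went from 0.058 to -0.35 for macrophages, 0.030 to 0.12 for cholangiocytes and 0.43 to 0.71 for blood. Of the 11 macrophage markers 7 were above 0 without the covariate and 3 with it. VSIG4 and C1QB turned sign to -0.35 (limma adjusted p = 0.420 and 0.271), and LYZ and MARCO differed by 0.12 and 0.051 (adjusted p = 0.742 and 0.931). The medians of these 3 lists ran from -0.45 to 0.37 in vehicle animals and from -0.26 to 0.17 in treated animals, from -0.098 to 0.20 in vehicle animals and from -0.073 to 0.11 in treated animals and from -0.26 to 0.15 in vehicle animals and from -0.0067 to 1.01 in treated animals, respectively. Which cells carried the mitotic transcripts, and the part of cell type makeup in their differences, was not tested.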

How the data were processed

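Liver RNA was converted to cDNA and labelled with Cy3, per the labels' protocols. The deposited values, which lie around 0 for each feature, were taken as log2; log base, scanner, normalization and probe summary: not given in the sources used here. Under another base every fold would differ. Of 45033 features, 18188 had 1 gene symbol in the platform's probe table, 0 several and 26845 none. The mean over a gene's features gave 16583 genes; 7 members had more than 1 feature. Symbols are human, and probe match to monkey transcripts was not examined.

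All 10 arrays entered 1 limma fit without covariates (version 3.58.1, lmFit then eBayes, under R 4.3.3), and p-values were adjusted by Benjamini-Hochberg across the 16583 genes. The fit was tested on simulated data drawn independently for each gene, which cannot show how variation shared between genes affects the calls. Single genes also got an exact two-sided permutation test. Arrays are of different animals; precision is limited by their number. Alternatives were other normalizations, gene summaries, variance settings, array weights, a covariate, a spread filter and leaving out each animal. The members and lists were chosen with earlier results of these data known. All members are named. Values per animal are given for called members and 10 preset genes, and up to 4 genes with the smallest p are named from every other list.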

Additional observations from a re-analysis of the deposited data

Results flagged for a closer look

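In 3 of 92 groups of 5 animals tested (2 groups for each of 44 members, for their median and for the family contrast), 1 animal stood apart by Dixon's test (critical value 0.71). Chance alone sets about 1 in 20 groups apart. FOXM1 was -0.10 in treated animal 1, below the nearest other treated animal at 0.031, and without that animal the difference was 0.10 (limma adjusted p = 0.366). TTK was 0.23 in treated animal 2, above the nearest other at -0.021, and without it the difference was -0.22 (adjusted p = 0.105). AURKB was 0.021 in treated animal 4, above the nearest other at -0.034, and without it the difference was -0.10 (adjusted p = 0.217).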

How the results depend on the processing

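CCNB1, MAD2L1, INCENP and NUSAP1 passed whichever of the 10 animals was left out. Those fits called 4 to 8 members (3 to 7 higher, 1 to 3 lower) and 1925 to 4117 of all genes. The count of members fell to 5 without vehicle animal 1, 2 or 3 or treated animal 4, and to 4 without treated animal 3. Other normalizations, gene summaries, variance settings, weights and the spread filter called 7 to 12 members and 19.8% to 26.3% of all genes. Of all calls, 66.8% were higher in treated animals; quantile normalization gave 54.3%. Given the family contrast as covariate, 1 member (1 higher, 0 lower) and 400 genes passed. Exact permutation per gene with adjustment over all genes called 0 members (0 higher, 0 lower) and 0 genes, with 16 members and 5454 genes at an unadjusted p under 0.05, since the smallest possible p adjusts to above 0.05 here. The cause of each loss was not tested.

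Signs turned only in members that did not pass. With the covariate differences were 0.087 for BUB1B, 0.10 for TTK, 0.031 for PLK1, 0.099 for NEK2, 0.14 for CENPA, 0.14 for CENPE, 0.013 for KIF20A, 0.12 for KIF23, 0.073 for TOP2A, 0.12 for PTTG1 and -0.019 for TPX2. With array weights they were 0.0080 for BUB1B and 0.035 for NUF2. UBE2C gave -0.0055 after quantile normalization and -0.15 for its most variable feature. Without 1 animal the ranges were -0.0030 to 0.083 for CDC25A, -0.029 to 0.070 for CDC25B, -0.028 to 0.037 for BUB1B, -0.055 to 0.014 for NEK2, -0.095 to 0.0064 for CENPA, -0.040 to 0.033 for NUF2, -0.098 to 0.0067 for PRC1, -0.0034 to 0.069 for HMMR, -0.041 to 0.080 for ASPM, -0.067 to 0.026 for PTTG1 and -0.014 to 0.049 for UBE2C. No paired analysis was possible because no label ties a treated animal to a vehicle animal. The planned promoter motif search was not run, since no promoter sequences were used here.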
